A study of Aedes aegypti with 6 samples.

Results

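The introns described here are the annotated introns of at least 10000 bases that carry the usual GT/AG splice sites and that at least 10 uniquely mapped reads crossed, summed over 6 RNA-seq libraries of the mosquito Aedes aegypti. They numbered 2520, which was 25.1% of the 10031 annotated introns with at least 10 reads. The junction tables listed 15579 annotated introns in all, of which 14595 had a uniquely mapped read. The 2520 were thus chosen by their length, splice site motif and summed reads, and none of these 3 properties is a finding about them.

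Whole bodies of larvae and of adults were collected at 3 sites in Eastern India, labelled K1 (location 1), K3 (location 2) and C (location 3). RNA of 10 pooled mosquitoes gave 1 larval and 1 adult library per location, so each stage had 3 libraries and each pool stood for 1 stage at 1 site. The sources used here do not give the age of the larvae, or the sex, age and feeding state of the adults. Values below are in the order of locations 1, 2 and 3, larvae first.

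An intron is removed from the transcript by joining its flanking exons, and a read that spans the join counts that event once, whatever the length of the intron. RNA polymerase must copy the whole intron before its 3′ splice site exists, so transcription of a long intron takes time that short introns do not need, and in Drosophila some long introns are known to be removed in several steps. In insects the longest introns often lie near the 5′ end of the gene and hold regulatory elements or whole other genes, and the large genome of Aedes aegypti is known for introns enlarged by transposable elements.

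Reads that crossed annotated introns numbered 4903085, 4690045 and 6652116 in the larvae and 3917343, 1091862 and 1730517 in the adults. Depth thus moved with stage, and the adult library of location 2 was the smallest. Reads aligned to several places made up 11.5% to 16.2% of the gene tables' reads in larvae and 36.0% to 62.2% in adults, with the highest value again in adults of location 2. The part of depth and of such reads in the stage results was not tested, and the counts of introns called by stage are also given without single libraries. RNA of a whole body cannot tell fewer cells of a type from less RNA per cell.

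The long introns ranged from 10001 to 446266 bases, with a median of 18006 and quartiles of 13107 and 29902. Their read sums had a median of 52 and quartiles of 23 and 163, and 1683 of them (66.8%) had fewer than 100 reads. The 2 shortest were an intron of 10001 bases that lies in several RefSeq genes, with 823 reads, and an intron of 10002 bases in LOC5580164, with 12 reads. Just under the length limit lay introns of 9994 bases in LOC5574915, with 50 reads, and of 9992 bases in LOC5576584, with 19 reads. At the read limit, 67 long introns had exactly 10 reads, among them those of LOC5565805 and LOC5572605, and 47 had 9 and stayed out, among them those of LOC5578809 and LOC5575809. In all, 1536 long GT/AG introns stayed out for too few reads, 185 of them with no unique read, and 9 with enough reads stayed out for another splice site motif.

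Nearly all long introns lay in protein-coding genes. A single RefSeq gene contained 2447 of them, of which 2440 lay in protein-coding genes, 4 in long noncoding RNA genes, 2 in pseudogenes and 1 in a transcribed pseudogene. A further 61 lay in several genes and 12 in none. The long introns belonged to 1787 genes, 41.0% of the 4356 genes with any annotated intron of at least 10 reads. Most of these genes, 1347, held 1 long intron, 304 held 2 and 136 held 3 or more.

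On the chromosomes the long introns were spread almost as introns of all lengths were. They numbered 683 on chromosome 1, 1048 on chromosome 2 and 778 on chromosome 3, with 11 off these chromosomes. These were 27.9%, 24.8% and 23.6% of the introns tested on chromosomes 1, 2 and 3. The plus strand held 1262 and the minus strand 1258. Long introns of chromosome 1 took 3.09% ± 0.276 (SD, n = 3) of all annotated-intron reads in larvae and 3.09% ± 0.178 in adults. The values were 4.69% ± 0.235 and 4.62% ± 0.283 on chromosome 2, and 4.81% ± 0.433 and 4.45% ± 0.459 on chromosome 3. On each chromosome the difference between the stage means was smaller than the larger of the 2 standard deviations.

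The stages overlapped in the share of junction reads that long introns took. Of all reads over annotated introns, they took 12.9%, 11.6% and 13.3% in larvae and 12.2%, 12.3% and 12.1% in adults. The adult libraries lay between larvae of location 2 and the other larvae. The means were 12.6% ± 0.902 (SD, n = 3) and 12.2% ± 0.114 (SD, n = 3), a difference of -0.41 percentage points with a two-sided exact permutation p of 0.5, where 0.1 is the smallest p that 3 against 3 allows. Without larvae of location 2 the difference was -0.92 percentage points and the stages no longer overlapped (exact permutation p = 0.1, the smallest p that 2 against 3 allows). The widest exact (Clopper-Pearson) 95% interval of a single library, that of adults of location 2, ran from 12.2% to 12.3% and covers counting error only.

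The share fell steeply with length at both stages. The 1417 introns of 10 to under 20 kb (10 to 20 kb from here on, and so for the other classes) took 10.7% ± 0.639 of the reads in larvae and 10.3% ± 0.229 in adults (exact permutation p = 0.6). The 780 introns of 20 to 50 kb took 1.69% ± 0.332 and 1.75% ± 0.211 (exact p = 0.9). In both classes the difference between the stage means was smaller than the standard deviation over larvae.

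In the 218 introns of 50 to 100 kb, the shares were 0.235%, 0.103% and 0.194% in larvae and 0.0942%, 0.120% and 0.0847% in adults (exact p = 0.2). The 105 introns of at least 100 kb took 0.0545%, 0.0254% and 0.0566% in larvae and 0.0207%, 0.0198% and 0.0265% in adults (exact p = 0.2). In both classes larvae of locations 1 and 3 lay above every adult library and larvae of location 2 lay among the adults. The length classes were chosen after the values were seen.

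**Figure D1:**
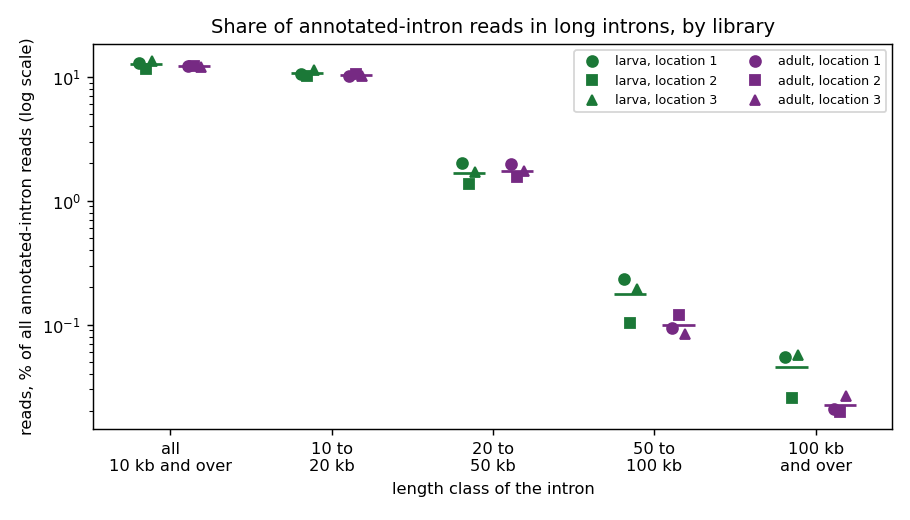
Share of the reads over all annotated introns that fell on long introns, in percent on a log axis, for all of them and for 4 length classes; each point is 1 library and each line the mean of 3. The points of the 2 stages overlap for all long introns and for the classes under 50 kb, while in the 2 longest classes larvae of locations 1 and 3 lie above all adults.

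Few long introns were read in every library. Libraries held at least 1 read of 1268, 1908 and 1772 long introns in larvae and of 1280, 539 and 1308 in adults (exact permutation p = 0.3). Larvae of location 1 detected about as many as adults of locations 1 and 3, although they had more junction reads, and adults of location 2 detected the fewest. At the depth of the smallest library, the expected numbers were 1242, 1502 and 1694 in larvae and 1226, 539 and 1246 in adults (exact p = 0.2). Adults of location 2 thus stayed lowest at equal depth, and this calculation was added after the values were seen.

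As a share of all introns with at least 10 reads that a library detected, long introns made up 24.0%, 23.5% and 24.3% in larvae and 23.0%, 21.0% and 23.2% in adults. All larval values lay above all adult ones, and the exact permutation p of 0.1 is the smallest that this design can give. At equal depth the values were 23.8% ± 0.780 (SD, n = 3) and 22.4% ± 1.23 (SD, n = 3), with an exact p of 0.3, and the stages overlapped. All 6 libraries held reads of 331 long introns (13.1%, against 16.0% of all introns tested), and 435 (17.3%, against 13.3%) had reads in a single library.

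Introns without any adult read were more frequent in the longer classes. They made up 26.5% of the introns of 10 to 20 kb, 31.4% of those of 20 to 50 kb, 44.5% of those of 50 to 100 kb and 51.4% of those of at least 100 kb, against 27.4% of all introns tested. Introns without any larval read made up 6.77%, 8.85%, 6.42% and 6.67% of these classes, with no such order, against 5.88% of all introns tested. Their median read sums were 63, 45, 39 and 35, so depth fell along the same classes, and its part in the shares without an adult read was not tested.

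**Figure D2:**
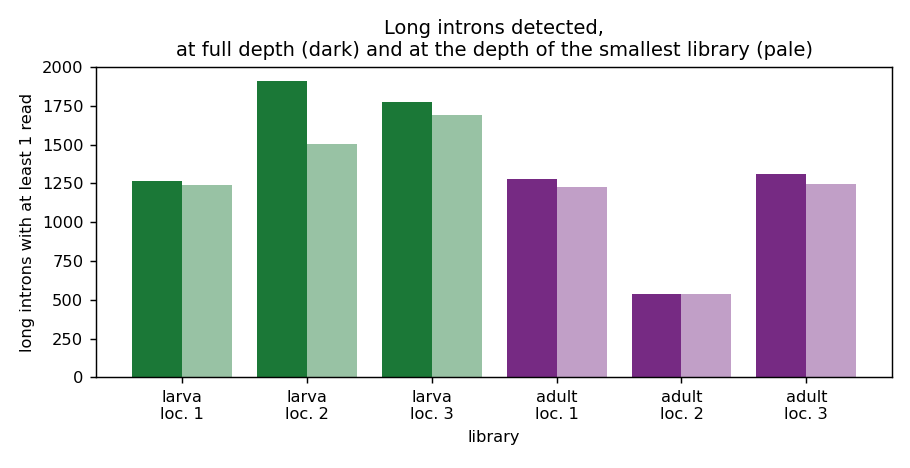
Number of long introns with at least 1 uniquely mapped read in each library, as sequenced (dark bars) and as calculated for the depth of the smallest library (pale bars). Larvae of locations 2 and 3 hold the most, 1908 and 1772, and adults of location 2 the fewest, 539, at either depth.

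The reads were concentrated on a few long introns. The 15 most read, a number chosen after the values were seen, held 59.8% of all long-intron reads, and 12 introns held the first 50%. These 15 lay in 15 protein-coding genes, were 10054 to 27915 bases long, and none was the 5′-most detected intron of its gene. The most read intron, of 12759 bases in LOC5566772 on chromosome 1 (47327146 to 47339904), had 29411, 41617 and 50116 reads in larvae and 31814, 8295 and 17573 in adults. Scaled to library size with TMM factors, as reads per 1000000 reads over annotated introns (CPM), its level was 8261 ± 5764 (SD, n = 3) in larvae and 9292 ± 3100 (SD, n = 3) in adults. The factors, by which the library totals were multiplied, were 1.54, 0.60 and 1.24 in larvae and 0.90, 1.20 and 0.81 in adults.

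The next in order were introns of 15381 bases in LOC5572365, 17255 in LOC5571564, 14475 in LOC5578313, 15717 in LOC5577034 and 10408 in LOC5568260, with read sums from 116907 to 175785. The stages overlapped in each of the 6 most read introns at these scaled levels. All 15 were highest in larvae of location 2, the library with the lowest factor. Of the 15, 13 were lowest in larvae of location 1, which had the highest factor. The part of the scaling in this spread was not tested. None of the 15 was called by stage in edgeR's quasi-likelihood test, where the smallest Benjamini-Hochberg adjusted p was 0.707 and the log2 fold changes of adults over larvae ran from -0.48 to 0.25.

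The longest introns carried few reads. The longest, of 446266 bases in LOC5580263 on chromosome 3 (38313694 to 38759959), had 30, 0 and 23 reads in larvae and none in adults, and 3 RefSeq genes lay wholly inside it. The second, of 410836 bases in LOC5571436 on chromosome 1, had 10 reads, all in adults of location 1. An intron of 399766 bases in LOC5577010 had 0, 5 and 36 reads in larvae and 0, 0 and 10 in adults. One of 371267 bases in LOC5569269 had 0, 18 and 19 in larvae and 7, 0 and 0 in adults. The 350071-base intron of LOC5570937 had 13 reads, all in larvae of location 1. At 342275 bases, the intron of LOC23687412 had 15, 8 and 13 reads in larvae and none in adults. It was the only one of the 6 with reads in all 3 libraries of a stage, and none of the 6 was called by stage (edgeR's quasi-likelihood test, smallest adjusted p = 0.524).

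Long introns tended to be the 5′-most detected intron of their gene. Among genes with at least 2 annotated introns of at least 10 reads, 853 of 1941 long introns (43.9%) were 5′-most, against 1490 of 5564 shorter introns (26.8%). The share was 34.2% at 10 to 20 kb, 52.5% at 20 to 50 kb, 60.5% at 50 to 100 kb and 75.3% at 100 kb and over. At the 3′ end the order was the other way, with 25.6% of long and 33.6% of shorter introns the 3′-most. Another 506 long introns were the only detected intron of their gene. Position was looked up after the values were seen and is given as a description, and an undetected intron further 5′ would not be seen. Introns that share the outermost 5′ or 3′ splice site of their gene were all counted. Among introns with a common 3′ end, the one that starts further 5′ is also the longer, so length and position are linked there.

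Long introns also had fewer reads than the shorter introns of the same gene. For each library, the reads of a long intron were divided by the median reads of the gene's introns under 10000 bases, where that median was at least 20. The median ratio was 0.407, 0.550 and 0.603 in larvae and 0.556, 0.308 and 0.450 in adults, over 144 to 718 introns per library. The ratio was below 1 in every library, and the stages overlapped.

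The same ratio was also below 1 for shorter introns against the others of their gene. It was 0.749, 0.92 and 0.880 in larvae and 0.783, 0.491 and 0.982 in adults for introns of up to 100 bases. For introns of over 100 and under 1000 bases it was 0.475, 0.671 and 0.647 and then 0.562, 0.405 and 0.626, and for those of 1 to 10 kb 0.656, 0.702 and 0.725 and then 0.665, 0.728 and 0.770. Long introns of 10 to 20 kb, at 0.591, 0.644 and 0.731 in larvae and 0.612, 0.416 and 0.646 in adults, lay within the range of the shorter classes in 5 of 6 libraries and just below it in larvae of location 2. Those of 20 to 50 kb, at 0.337, 0.407 and 0.487 and then 0.505, 0.246 and 0.333, lay below all 3 shorter classes in all 6 libraries.

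At 50 to 100 kb the ratio was 0.208, 0.361 and 0.551 in larvae and 0.163, 0 and 0 in adults, where the last 2 values rest on 8 and 13 introns. Ratios were lower for 5′-most long introns, at 0.329, 0.383 and 0.469 in larvae and 0.408, 0.185 and 0.381 in adults, than for the others, at 0.504, 0.629 and 0.743 and then 0.643, 0.402 and 0.521. Since the 5′-most introns were also longer, with a median of 22600 against 16247 bases, position and length moved together, and their separate parts were not tested. The ratios were computed after the values were seen and carry no test.

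**Figure D3:**
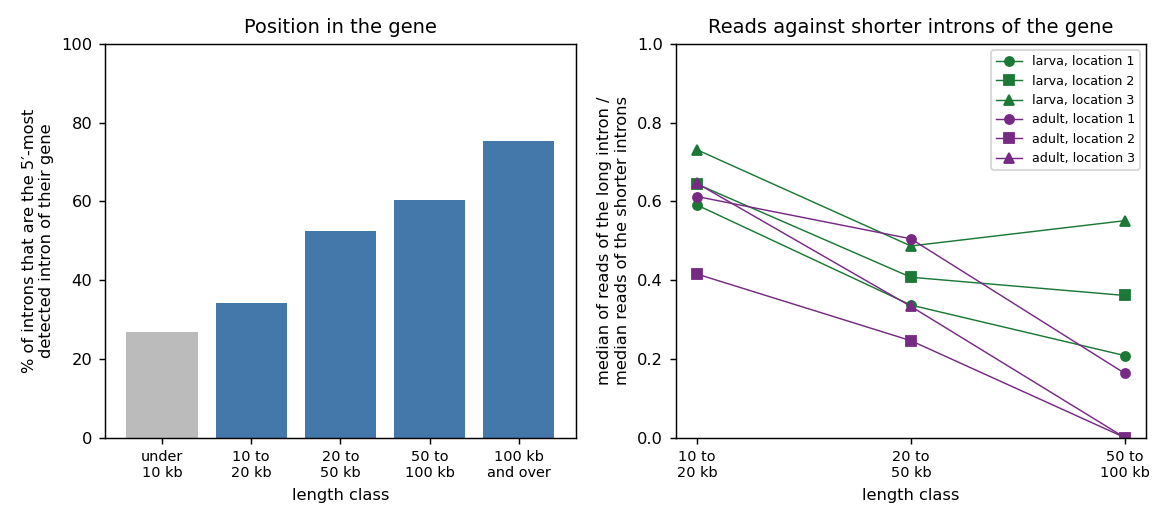
Left, percentage of introns that were the 5′-most detected intron of their gene, for shorter introns (grey) and 4 classes of long introns, which rises from 26.8% to 75.3%. Right, median over introns of the reads of a long intron divided by the median reads of the shorter introns of its gene, by length class, with 1 line per library; the ratio was highest at 10 to 20 kb in every library.

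Few long introns were called by stage, and the calls went in both directions. Reads per intron were compared between adults and larvae with edgeR's quasi-likelihood test over all 10031 introns, and an intron was called at a Benjamini-Hochberg adjusted p under 0.05. Of all introns tested, 3.96% were called, 2.24% higher in larvae and 1.71% higher in adults. Of the 2520 long introns, 77 (3.06%) were called, 44 (1.75%) higher in larvae and 33 (1.31%) higher in adults, each a little under the share over introns of all lengths. Introns of up to 100 bases were called at 5.01%, those of over 100 and under 1000 bases at 3.43% and those of 1 to 10 kb at 3.62%, while the 4 classes of long introns gave 2.82%, 3.33%, 4.13% and 1.90% in order of length. On chromosomes 1, 2 and 3, 3.07%, 3.34% and 2.70% of the long introns were called, against 3.76%, 4.04% and 4.06% of all introns. An unadjusted p under 0.05 was found in 290 of the 2520 long introns and in 1259 of all 10031 introns. Since 66.8% of long introns had fewer than 100 reads, an intron that was not called is not shown to be alike at both stages.

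Every larval library lay above every adult one in 330 long introns (13.1%, against 14% of all introns tested), and every adult library above every larval one in 85 (3.37%, against 3.74%). Both shares were near those of introns of all lengths. The median log2 fold change of adults over larvae was -1.08 over long introns and -0.90 over all introns, so the typical intron was lower in adults after scaling. With DESeq2's size factors these medians were -1.07 and -0.84, and with library totals alone -1.30 and -1.13. Of the 77 long introns called, 76 and 73 were called under these scalings. With TMM factors and at least 100 reads, the medians were -0.69 over long introns and -0.65 over all introns. The part of depth, of the read minimum and of the scaling in these medians was not tested.

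The counts changed when location, which larvae and adults share by number, entered the fit as a block. They also changed without single libraries, and the cause of these changes was not tested. Counts over introns of all lengths are not given for these fits, so the changes are not shown to be particular to long introns. With location as a block in the fit, 18 long introns were called higher in larvae and 21 higher in adults, and 38 of the 77 calls were kept. Without larvae of location 1, 23 long introns were called higher in larvae and 16 higher in adults, without larvae of location 2, 27 and 38, and without larvae of location 3, 19 and 16. Without adults of location 1 the counts were 31 and 32, without adults of location 2, 67 and 44, and without adults of location 3, 35 and 27. Of the 44 and 33 calls, 11 and 13 were kept whichever library was left out, and each was kept in at least 1 of these 6 fits.

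The called introns lay in 64 genes and were 10001 to 108800 bases long, with a median of 18694. Of the 44 higher in larvae, 24 had no adult read, and larvae were the higher stage at all 3 locations in 42. Of the 33 higher in adults, 14 had no larval read, and adults were the higher stage at all 3 locations in 22. Over introns of all lengths, 134 of 225 called higher in larvae had no adult read. Likewise, 60 of 172 called higher in adults had no larval read, so such calls were not particular to long introns. Where both stages had more than 3 reads, the median ratio of the stage means was 10.7 over 17 introns called higher in larvae and 48.6 over 17 called higher in adults. Since a call needs a large difference at this spread, these medians describe the called introns only.

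Among long introns called higher in larvae and higher in larvae at all 3 locations, the 8 with the smallest p had no adult read at all, and all 8 were called with location as a block. An intron of LOC5578716, described below, had a p-value among these but was not higher in larvae at every location. An intron of 13072 bases in LOC5578553 (chromosome 3, 180402246 to 180415317) had 2090, 1094 and 1233 larval reads, a scaled level of 272 ± 120 CPM (SD, n = 3). Against the floor of 3 reads over the adult libraries, 0.481 CPM, this was at least 565-fold lower in adults (edgeR's quasi-likelihood test, adjusted p = 4.43e-13). Such a floor, here and below, covers counting error alone and not the spread between pools. An intron of 12338 bases in LOC5567307 (chromosome 3, 227713555 to 227725892) had 3191, 361 and 2105 larval reads, 269 ± 148 CPM (SD, n = 3). It was at least 559-fold lower in adults (edgeR's quasi-likelihood test, adjusted p = 4.82e-13). Both were called whichever library was left out, and in both the lowest larval library stood far above the adults.

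An intron of 10649 bases in the long noncoding RNA gene LOC110675879 (chromosome 2, 105079580 to 105090228) had 372, 624 and 72 larval reads. Its level was 93.3 ± 113 CPM (SD, n = 3), at least 194-fold lower in adults (edgeR's quasi-likelihood test, adjusted p = 6.35e-08), with larvae of location 3 lowest. LOC5576712 held the longest of the 8, an intron of 32113 bases (chromosome 1, 262368420 to 262400532) with 561, 132 and 417 larval reads. The 3 larvae lay close together there, at 57.3 ± 14.9 CPM (SD, n = 3), at least 119-fold lower in adults (edgeR's quasi-likelihood test, adjusted p = 3.96e-06). An intron of 13388 bases in LOC5575706 (chromosome 2, 186377483 to 186390870) had 501, 197 and 244 larval reads, 55.4 ± 22.4 CPM (SD, n = 3). It was at least 115-fold lower in adults (edgeR's quasi-likelihood test, adjusted p = 5.40e-06), and these 3 introns too were called whichever library was left out.

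The other 3 of the 8 rested on larvae of location 3. An intron of 11420 bases in LOC110678413 (chromosome 3, 6466968 to 6478387) had 203, 20 and 1018 larval reads. One of 16093 bases inside several genes (chromosome 1, 24182316 to 24198408) had 186, 39 and 958, and one of 20874 bases in LOC5575902 (chromosome 2, 224877290 to 224898163) had 142, 11 and 970. They were called with all libraries (edgeR's quasi-likelihood test, adjusted p = 8.19e-06, 9.38e-06 and 2.06e-05). Without larvae of location 3 the adjusted p was 0.101, 0.0673 and 0.272, and none was called.

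Among long introns called higher in adults and higher in adults at all 3 locations, 4 of the 8 with the smallest p had no larval read, and all 8 were called with location as a block. Introns of LOC5575278 and LOC5577994, described below, had p-values among these but were not higher in adults at every location. An intron of 11362 bases in LOC5568131 (chromosome 2, 133384128 to 133395489) had 2948, 49 and 1074 adult reads, 546 ± 442 CPM (SD, n = 3). Against the floor of 3 reads over the larval libraries, 0.161 CPM, this was at least 3386-fold higher in adults (edgeR's quasi-likelihood test, adjusted p = 1.54e-20). The larval floor too covers counting error alone. Adults of location 2 were far below the other adults, and still above all larvae. An intron of 12437 bases in LOC5572260 (chromosome 3, 35881777 to 35894213) had 557, 174 and 198 adult reads. Its 3 adult levels were close, 144 ± 13.0 CPM (SD, n = 3), at least 892-fold higher than in larvae (edgeR's quasi-likelihood test, adjusted p = 6.20e-12).

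An intron of 12860 bases in LOC110676152 (chromosome 2, 156191320 to 156204179) had 270, 77 and 118 adult reads. These gave 73.1 ± 13.0 CPM (SD, n = 3), at least 453-fold higher than in larvae (edgeR's quasi-likelihood test, adjusted p = 8.44e-09). An intron of 10194 bases in LOC5576882 (chromosome 1, 130265342 to 130275535) had 231, 29 and 33 adult reads, 37.1 ± 24.7 CPM (SD, n = 3). It was at least 230-fold higher than in larvae (edgeR's quasi-likelihood test, adjusted p = 6.59e-06). Both had reads in all 3 adult libraries and in no larval one.

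The other 4 had few larval reads. An intron of 29971 bases in LOC5569002 (chromosome 3, 196268494 to 196298464) had 0, 4 and 0 larval and 873, 22 and 506 adult reads, a ratio of stage means of 440. In LOC5575504, an intron of 47720 bases (chromosome 2, 396105266 to 396152985) had 0, 6 and 0 larval and 734, 131 and 587 adult reads, a ratio of 341. Their adjusted p was 3.45e-10 and 3.53e-10 (edgeR's quasi-likelihood test), and in both the larval reads came from location 2 alone.

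An intron of 12407 bases in LOC5573467 (chromosome 2, 91018229 to 91030635) had 0, 5 and 0 larval and 480, 117 and 93 adult reads, a ratio of 164 (edgeR's quasi-likelihood test, adjusted p = 2.14e-06). The only one of the 8 with reads in every library was an intron of 21595 bases in LOC5568132 (chromosome 2, 133263138 to 133284732). It had 35, 19 and 72 larval and 1288, 252 and 592 adult reads, a log2 fold change of 5.60 ± 1.01 (SE; edgeR's quasi-likelihood test, adjusted p = 2.61e-06). The groups did not overlap, and all 8 were called whichever library was left out.

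**Figure D4:**
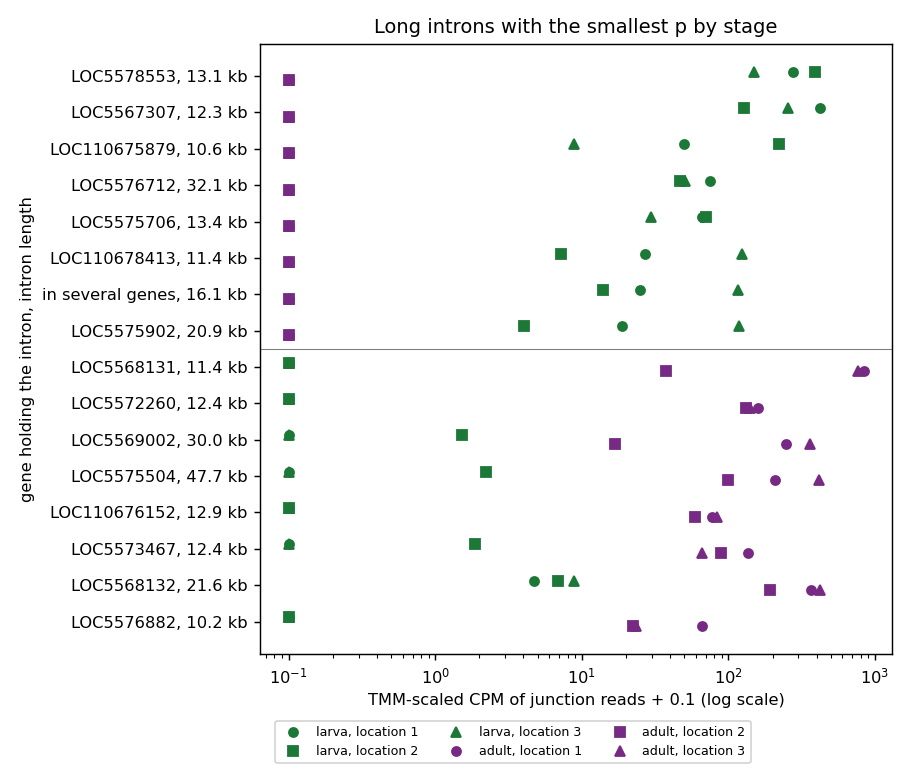
Level of 16 long introns in each library, as TMM-scaled CPM plus 0.1 on a log axis; the 8 above the line were called higher in larvae and the 8 below it higher in adults, with that direction at all 3 locations, and each symbol is 1 library. Symbols at 0.1 stand for libraries without a read, which are all adult libraries for the upper 8; identical values lie on top of each other.

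In 6 genes, 2 long introns each were called by stage. Both called introns were higher in adults in LOC5568131, LOC5568246 and LOC5573467, and both higher in larvae in LOC5573874 and LOC5574224. In LOC5568246 on chromosome 2, an intron of 96087 bases had 85, 104 and 158 larval and 632, 274 and 284 adult reads, and the adjoining one of 31290 bases had 103, 61 and 69 and then 544, 363 and 160. Their log2 fold changes were 3.13 ± 0.95 and 3.64 ± 0.99 (SE; edgeR's quasi-likelihood test, adjusted p = 0.0287 and 0.00902). Without larvae of location 3 their adjusted p was 0.289 and 0.198, and without larvae of location 1 it was 0.250 and 0.0947, while the first was also lost without adults of location 3 (0.0560). In LOC5574224 on chromosome 3, introns of 55783 and 16344 bases had 178, 73 and 368 and then 18, 45 and 359 larval reads and no adult read (edgeR's quasi-likelihood test, adjusted p = 4.00e-04 and 0.00594). The 16344-base intron was not called without larvae of location 3 (adjusted p = 0.363) or with location as a block (0.145). Neither were the 2 introns of LOC5573874 with the block (adjusted p = 0.0829 and 0.307). Neighbouring introns of a gene share its transcripts, so the 2 introns of a pair are not independent.

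LOC5568132 was the exception, with called introns of opposite direction. Its intron of 22272 bases (chromosome 2, 133262461 to 133284732) had 595, 460 and 738 larval and 10, 18 and 14 adult reads, a log2 fold change of -3.66 ± 1.08 (SE; edgeR's quasi-likelihood test, adjusted p = 0.0225). The intron of 21595 bases that ends at the same place rose in adults, as given above. The larval call was kept only without adults of location 2, with adjusted p from 0.0586 to 0.143 without any other library, and the adult call was kept in all 6 fits.

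Long introns that share a splice site with another junction could be compared with it directly. Such a comparison asks in which proportions the alternatives of 1 splice site were used, and not how strongly the gene was expressed. Among 621 groups of junctions with a common start or end, 1.93% were called by stage (edgeR's test of differential junction use, Benjamini-Hochberg adjusted p under 0.05). Of the 205 groups that held a long intron, 8 (3.90%) were called. With location as a block, 2 of the 8 were called, those of LOC5568131 and LOC5568132. The 8 groups lay in 8 genes, and the count fell to 1 without larvae of location 1, to 1 without adults of location 1, to 5 without larvae of location 3 and to 4 without adults of location 2.

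The group with the smallest p was in LOC5568131, where 3 long introns and 1 short unannotated junction start at 133384128. The intron of 11362 bases took 0%, 0% and 0% of the group's reads in larvae and 98.7%, 89.1% and 98.6% in adults. The intron of 33347 bases took 58.6%, 66.7% and 54.5% in larvae and 0.335%, 0% and 0.367% in adults. Larvae used the much longer intron and adults the shorter one, although the larval shares rest on 58, 42 and 33 reads. The unannotated junction of 662 bases took 41.4%, 23.8% and 45.5% of the larval reads and at most 1.01% in an adult library. The group was called whichever library was left out (edgeR's test of junction use, adjusted p = 3.41e-05). In no read of the 11362-base intron did both sides of the join hold more than 21 bases.

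LOC5568132 gave a similar exchange between introns of almost equal length that end at 133284732. The intron of 22272 bases took 94.4%, 93.9% and 91.1% in larvae and 0.756%, 6.67% and 2.23% in adults. The intron of 21595 bases took 5.56%, 3.88% and 8.89% in larvae and 97.4%, 93.3% and 94.4% in adults. The stages did not overlap for either intron, with 270 to 1323 reads per library in the group (edgeR's test of junction use, adjusted p = 0.00129). Without larvae of location 1 the adjusted p was 0.0675, and the call was kept in 4 of the 6 fits without a library. In no read did both sides of the join hold more than 23 bases for the 22272-base intron, or 17 for the 21595-base one.

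In LOC5575278 a long intron was read in adults of locations 1 and 3 and, but for 1 read, in no larval library. The intron, of 10512 bases, took 0%, 0.133% and 0% of the group's reads in larvae and 29.0%, 0% and 23.2% in adults, while an intron of 1276 bases took the rest. Adults of location 2, with 44 reads in the group, did not show it (edgeR's test of junction use, adjusted p = 6.09e-04, 0.109 without larvae of location 1, and 0.0572 with location as a block). The call was kept in 4 of the 6 fits without a library. LOC5575504 exchanged introns of 47720 and 47119 bases. The 47720-base intron took 19.4% and 0% in larvae of locations 2 and 3, with no read in larvae of location 1, and 85.4%, 65.2% and 95.3% in adults (edgeR's test of junction use, adjusted p = 0.0452). This call was kept in 1 of the 6 fits without a library, and its adjusted p was 0.506 without larvae of location 3 and 0.146 with location as a block.

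The other 4 groups were not called with location as a block, where their adjusted p was 0.272 to 0.458. In LOC23687432 an intron of 44698 bases took 32 of 32, 14 of 17 and 196 of 220 larval reads and 0 of 39 and 0 of 21 adult reads at locations 1 and 3. Adults used an intron of 1049 bases there, and those of location 2 had no read (adjusted p = 0.0288 in edgeR's test of junction use, and up to 0.430 without larvae of location 3). This call was kept in 1 of the 6 fits without a library. LOC5574096 had 0, 1 and 33 larval reads on an intron of 15085 bases, and 34, 0 and 49 adult reads on one of 46030 bases. Neither intron had a read at the other stage (adjusted p = 0.0364), and the call was lost whichever library was left out.

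In LOC5576127 an intron of 10008 bases took 17.0%, 7.76% and 0% of the larval reads and no adult read (adjusted p = 0.00599 in edgeR's test of junction use). Introns of 936 and 458 bases took most of the larval and adult reads there, and the adjusted p was 0.433 without adults of location 1. In LOC5569815 the intron of 18478 bases took 100%, 100% and 98.3% in larvae and 100%, 0% and 87.1% in adults, so adults of location 2 alone set the difference (adjusted p = 0.0364). Without adults of location 2 its adjusted p was 0.453. The call of LOC5569815 was kept in 2 of the 6 fits without a library, and that of LOC5576127 in 4.

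**Figure D5:**
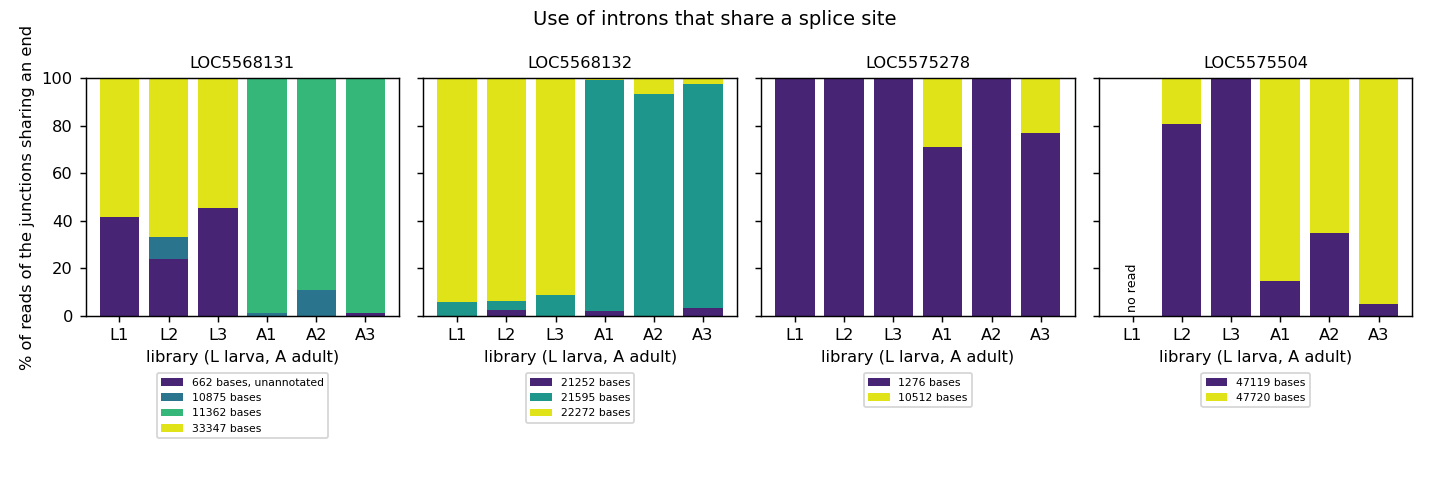
Percentage of the reads of all junctions sharing 1 splice site that each junction took, in 4 genes; bars are the larval (L) and adult (A) libraries of locations 1 to 3 and colours are junctions of the stated length. In LOC5568131 and LOC5568132 the leading intron differs between every larval and every adult library, and in LOC5575278 the 10512-base intron appears in adults of locations 1 and 3.

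Against all other introns of their gene, few long introns stood apart by stage. Of 7517 introns tested in 2302 genes, 0.0931% were called, and of 1941 long introns 3 (0.155%) were called (edgeR's test of junction use within genes, Benjamini-Hochberg adjusted p under 0.05), while 65 had an unadjusted p under 0.05. On simulated counts this test missed many introns with a true change, so an intron that was not called is not shown to follow its gene. All 3 are also in the called groups above. No call was left without larvae of location 1, and none without adults of location 1, and with location as a block only that of LOC5568131 was left.

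The intron of 11362 bases in LOC5568131 took 0%, 0% and 0% of its gene's intron reads in larvae and 18.0%, 22.3% and 18.7% in adults (adjusted p = 4.30e-05). The 22272-base intron of LOC5568132 took 20.8%, 20.5% and 20.9% in larvae and 0.172%, 1.26% and 0.582% in adults (adjusted p = 0.0264, and 0.113 with location as a block). These shares were close within each stage and far apart between them. Even so, of the 6 fits without a library, the call of LOC5568131 was kept in 4 and that of LOC5568132 in 1. Without adults of location 1 the adjusted p of LOC5568132 was 0.759 in edgeR's test of junction use within genes. The 10512-base intron of LOC5575278 took 0%, 0.0469% and 0% in larvae and 9.67%, 0% and 7.50% in adults (adjusted p = 0.00263, and 0.113 with location as a block), and again lacked a read in adults of location 2. Its call was kept in 3 of the 6 fits without a library.

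Several genes held runs of long introns. LOC5573536 on chromosome 1 held 12, which all start at 301375487 and end at 12 different places, 19456 to 228653 bases away. Together they had 127, 54 and 171 larval and 16, 8 and 6 adult reads, with 10 to 63 reads on a single intron, and 8 of the 12 had larval reads only. The 8 long introns of LOC5575057 on chromosome 2 had 574, 86 and 122 larval and 18, 0 and 0 adult reads. The 7 of LOC5566288 had 0, 36 and 208 larval and 46, 71 and 46 adult reads, and the 7 of LOC110674205 had 136, 11 and 96 larval and 9, 0 and 0 adult reads. None of these introns was called by stage.

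LOC5571596, LOC5575995 and LOC5569269 held 6 long introns each, and those of LOC5571596 on chromosome 2 had the most reads, 9861, 6470 and 15512 in larvae and 1492, 433 and 267 in adults. One of them, of 14901 bases (97597503 to 97612403), was called higher in larvae, with 7357, 4658 and 12098 larval and 1129, 306 and 212 adult reads (edgeR's quasi-likelihood test, adjusted p = 0.0163). Every larval library lay above every adult one there, but the call was lost without adults of location 3 (adjusted p = 0.165) without larvae of location 3 (0.139) and with location as a block (0.0829). The long introns of LOC5575995 had 4169, 3077 and 4916 larval and 5108, 861 and 1095 adult reads, and those of LOC5569269 had 49, 67 and 21 larval and 253, 0 and 10 adult reads. None of these was called, and in LOC5569269 the adult sum came almost wholly from location 1.

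Hardly any long intron was called between locations. With stage as a covariate, 0%, 0.0399% and 0.0498% of all introns were called between locations 2 and 1, 3 and 1, and 3 and 2 by edgeR's quasi-likelihood test. Of the 2520 long introns, 0, 1 and 0 were called, while 15, 10 and 12 had an unadjusted p under 0.05, and DESeq2's Wald test called 0 in each. Over all 10031 introns tested, 103, 76 and 86 had an unadjusted p under 0.05 in edgeR's test. These fits have 2 residual degrees of freedom, and their spread is that of location differences between larvae and adults. An intron that was not called is therefore not shown to be alike at the locations. Between locations 2 and 1, and between 3 and 2, the count rose without either library of location 2, where location 2 is then a single library. Counts over introns of all lengths are not given for these fits, so the rise is not shown to be particular to long introns.

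The called intron, of 11825 bases in LOC5577994 (chromosome 3, 81463931 to 81475755), had 0, 5 and 0 larval and 0, 0 and 473 adult reads. Its log2 fold change of location 3 over location 1 was 11.05 ± 2.52 (SE; edgeR's quasi-likelihood test, adjusted p = 0.0354). The difference came from 1 library, adults of location 3, and was not called without it. The same library set its stage call (edgeR's quasi-likelihood test, adjusted p = 6.25e-07), which was lost without that library (adjusted p = 0.621) and with location as a block (0.944).

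The smallest p between locations 2 and 1 was that of an intron of 40601 bases in LOC5578716 (chromosome 2, 315812842 to 315853442), with 0, 416 and 13 larval reads and no adult read (edgeR's quasi-likelihood test, adjusted p = 0.694). Between locations 3 and 2 it was that of an intron of 10841 bases in LOC5572959 (chromosome 3, 149132714 to 149143554), with 0, 0 and 10 larval and 425, 0 and 62 adult reads (edgeR's quasi-likelihood test, adjusted p = 0.680). In both, reads of 1 or 2 libraries made the difference. Both were also called by stage (edgeR's quasi-likelihood test, adjusted p = 1.28e-05 and 1.17e-04). The stage call of LOC5578716 was lost without larvae of location 2 (0.736) and with location as a block (0.0572). That of LOC5572959 was lost without adults of location 1 (0.0836). The next smallest p between locations 3 and 2 was that of an intron of 81599 bases inside several genes (chromosome 3, 74131387 to 74212985). It had 308, 328 and 244 larval and 0, 77 and 0 adult reads (edgeR's quasi-likelihood test, adjusted p = 0.949).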

How the data were processed

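Per the labels' protocols, total RNA was sequenced as paired ends of 150 bases, and the submitters' processing notes name FastQC, cutadapt, fastp, STAR and edgeR without versions. The sources used here name no genome build or annotation, and none of the alignment settings, which limit the longest intron that can be found. The deposited junction tables hold raw counts per intron, of reads mapped uniquely and of reads mapped to several places, beside the position, motif, annotation state and longest overhang. Whether single reads or pairs were counted is unsure. The deposited gene tables, also counts, served for depth only.

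Uniquely mapped reads per annotated intron were tested with edgeR 4.0.16 under R 4.3.3 (TMM factors, glmQLFit, glmQLFTest, and diffSpliceDGE for shared ends and genes), with Benjamini-Hochberg adjustment over everything tested. The stage test has 4 residual degrees of freedom. DESeq2 1.42.0 was an alternative, in which 1482 long introns had no adjusted p, and limma 3.58.1 was loaded with edgeR. Python 3.11.15 with scipy 1.17.1 gave exact permutation tests and intervals. The scripts were tested on simulated data, and the requirement set for the within-gene test was lowered after it recovered fewer changed introns than first asked for. Each stage had 1 pool at a location, so p-values measure the spread between pools of different sites, and nothing measures that between pools of 1 site. Reads of 1 amplified fragment are not independent, so intervals and floors are for counting error alone. A fold against a stage without reads used 3 counts over its 3 libraries.

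The RefSeq table of AaegL5.0 gave symbols and gene types by position. Of 15077 annotated introns on chromosomes 1 to 3, 99.97% lay in a RefSeq gene, against 55.97% and 53.55% after shifts of 100000 and 1000000 bases. It holds no product names, so planned groups by gene role and a check of the stage labels by marker genes could not be made, and no role is given to any gene. Coordinates are those of the junction tables.

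The long introns, the lists and the tests were chosen with earlier results of these data known. Named are the 6 longest and 6 most read introns, the 8 called with the smallest p and the same direction at all 3 locations per stage, the called or smallest-p introns by location, the long introns of called groups, the 5 genes with most long introns (ties by reads, and the other 2 genes tied at 6 introns were added later), and those beside each threshold. The groups of LOC5569815 and LOC5575504, the pairs within genes and the stage results of LOC5577994, LOC5578716 and LOC5572959 were added after their values were seen. Alternatives were other scalings, tests, read and length minimums, multiply mapped reads, a minimum overhang of 20 bases, location as a block, and single libraries left out. The length and overhang minimums were run for the share of reads alone.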

Additional observations from a re-analysis of the deposited data

Results flagged for a closer look

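The stage difference in the share of annotated-intron reads that long introns took went different ways at the locations. Adults minus larvae it was -0.66 percentage points at location 1, 0.69 at location 2 and -1.26 at location 3. Each value compares 1 library with 1 other, and the difference between the locations was not tested.

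Unannotated long junctions lie outside the comparisons of the report. There were 702 GT/AG junctions of at least 10000 bases and at least 10 uniquely mapped reads without annotation. They held 236341 reads, which is 8.20% of the reads of the annotated long introns, with a median of 28 reads. Of the 702, 438 had reads in at least 2 libraries, 292 had larval reads only and 138 adult reads only.

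A further 96 annotated introns of at least 10000 bases had no uniquely mapped read and at least 10 multiply mapped ones, 21707 in all. With 3 samples per group, no sample was tested for standing apart from its group.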

How the results depend on the processing

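The stage difference in the share of reads kept its sign under all alternatives except a length minimum of 5000 bases, where it was 0.53 percentage points (exact permutation p = 0.6); leaving out single libraries gave -0.92 to -0.05, and the cause was not tested. The 44 and 33 long introns called higher in larvae and adults became 80 and 52 with DESeq2's Wald test, 18 and 21 with location as a block, and 19 to 67 and 16 to 44 without single libraries. The number shared by larval and adult libraries is the collection location, and libraries of the same location did not deviate together (r from -0.08 to 0.00). By location, 2 against 1 gave 0 to 28 without single libraries, 3 against 1 gave 0 to 1, and 3 against 2 gave 0 to 26; the call of 3 against 1 was also lost (0) with DESeq2's Wald test and without a read minimum. The 8 groups sharing an end became 4 at 30 reads, 2 with the block and 1 to 9 without single libraries. The 3 within-gene calls became 1 with the block and 0 to 4 without single libraries. The cause of these changes was not tested. Of the 16 introns named by stage, 13 kept their call in every alternative that was run for them. The minimum overhang was not among these, and the 21595-base intron of LOC5568132, with a longest overhang of 17 bases, lies under it. At the smallest library, 3 reads are 2.75e-04% of annotated-intron reads, and 66.8% of long introns had fewer than 100 reads over all libraries, so differences in these could often not be detected.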

Other observations

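A minority of long introns enclosed other transcription units. A RefSeq gene lay wholly inside 253 of the 2509 long introns on chromosomes 1 to 3 (10.1%), a protein-coding one inside 88, and 1 intron held 9 genes. Another annotated intron with at least 10 reads lay inside 38 of them, on the other strand in 13. An end was shared with another annotated intron by 315 long introns, and with another long intron by 247.

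Read support at the splice sites was seldom short over all long introns, but it was short in some introns named above. The longest overhang was 21 bases in the 11362-base intron of LOC5568131. It was 17 and 23 bases in the 21595-base and 22272-base introns of LOC5568132. At least 20 bases of a read lay on each side of the join in some library for 2348 long introns (93.2%), with a median longest overhang of 59 bases and a lowest of 3. Across the long introns, Spearman's rho of length and summed reads was -0.16 over 2520 introns, which share libraries and were chosen by both measures, so it is a description only. Among introns with at least 100 reads, 69 of 837 long introns (8.24%) were called by stage, against 9.60% of all introns tested with as many reads.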
